A study of Mus musculus with 36 samples.

Results

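C-type lectin receptors are surface proteins with which macrophages bind sugars and lipids of microbes and of damaged cells. The 10 genes described are myeloid members of this family, taken by name from the deposited expression table: Clec4n, Clec4d, Clec4e, Clec4a1, Clec4a2, Clec4a3, Clec5a, Clec7a, Clec10a and Mrc1. They are 10 of the 16416 genes used, and all 10 are among the 11656 genes tested, with a level above the filter in each of the 36 libraries. The libraries are RNA-seq of mouse bone marrow-derived macrophages, grown from marrow over 7 days with L929 cell supernatant, which holds the macrophage growth factor M-CSF. Cells were wild type (WT) or carried the Tnip2[D310N] allele, called D310N here and written D309N in the deposited table, and each genotype was sampled unstimulated (0 min) and after 30, 60, 120, 240 and 360 min in 100 ng/ml lipopolysaccharide (LPS), with 3 libraries in each of the 12 groups. Tnip2 encodes ABIN-2, a ubiquitin-binding partner of the kinase Tpl2. Strain, age, the number of mice and whether the allele was homozygous are not given in the sources used here, and the labels do not say whether libraries of a group came from separate mice or cultures. P-values therefore measure the spread between these libraries, which may be technical.

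As background, these receptors differ in how they signal. Dectin-1 (Clec7a) binds fungal beta-glucan and carries its own activating motif, whereas Dectin-2 (Clec4n), MCL (Clec4d) and Mincle (Clec4e) pair with the Fc receptor gamma chain (Fcer1g). All 4 reach the kinase Syk and the adaptor Card9. Clec5a, which binds flaviviruses, signals through the adaptor DAP12 (Tyrobp). The Clec4a genes encode the DCIR family, of which Clec4a2 carries an inhibitory motif that recruits phosphatases. Clec10a (the galactose-type lectin MGL1) and Mrc1 (the mannose receptor CD206) take up glycoproteins and are commonly used as markers of alternatively activated macrophages.

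Levels are the deposited normalised values on a log2 scale, and a difference of 1 is a 2-fold change. Library medians lay between 6.83 and 7.2. Raw counts were not used here, so the depth of each library is unknown and no counting interval is given. The macrophage identity of the cultures was checked on 9 markers, all of which passed the filter, with summed levels on the linear scale of 233000 to 291000 in WT and 222000 to 290000 in D310N. The summed level of the 6 lymphocyte markers in the table was at most 3.72 in any library. The WT library numbered 1 at 360 min stood furthest from its group, with a mean correlation of 0.9901 with the other 2 libraries against up to 0.9982 for other libraries. RNA came from whole cultures, so fewer cells of a type and less RNA per cell cannot be told apart.

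Promoter sequences are shown for the 4 receptors whose RNA rose under LPS, since these are the members that moved together. Each is the 250 bases before the annotated start, from RefSeq on build GRCm38.p6, 5′ to 3′ on the strand of the gene. RefSeq promoters matched 8 of the 10 members. Capitals mark matches, on either strand, to any of 5 motifs: an NF-kB type (GGG, any 5 bases, CC), TTNNGCAA (C/EBP type), GAGGAA (PU.1 type), TGANTCA (AP-1 type) and an interferon type (GAAA, any 2 bases, GAAA).
Clec4e (chr6:123289872-123290121, minus strand): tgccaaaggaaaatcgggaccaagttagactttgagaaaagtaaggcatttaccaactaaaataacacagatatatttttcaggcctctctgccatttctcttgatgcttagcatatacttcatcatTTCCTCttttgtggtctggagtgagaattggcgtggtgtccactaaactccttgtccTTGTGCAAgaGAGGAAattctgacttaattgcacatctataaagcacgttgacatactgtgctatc
Clec4d (chr6:123261857-123262106, plus strand): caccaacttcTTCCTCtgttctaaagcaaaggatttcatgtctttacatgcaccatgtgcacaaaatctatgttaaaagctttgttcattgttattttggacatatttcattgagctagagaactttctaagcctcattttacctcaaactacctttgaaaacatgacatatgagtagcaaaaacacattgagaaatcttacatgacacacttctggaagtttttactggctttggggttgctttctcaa
Clec5a (chr6:40585806-40586055, minus strand): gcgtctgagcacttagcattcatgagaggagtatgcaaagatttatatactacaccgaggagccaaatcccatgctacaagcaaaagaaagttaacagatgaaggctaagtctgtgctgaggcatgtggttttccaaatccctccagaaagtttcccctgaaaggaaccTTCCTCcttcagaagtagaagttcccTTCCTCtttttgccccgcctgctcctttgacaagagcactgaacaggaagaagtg
Clec4a1 (chr6:122921598-122921847, plus strand): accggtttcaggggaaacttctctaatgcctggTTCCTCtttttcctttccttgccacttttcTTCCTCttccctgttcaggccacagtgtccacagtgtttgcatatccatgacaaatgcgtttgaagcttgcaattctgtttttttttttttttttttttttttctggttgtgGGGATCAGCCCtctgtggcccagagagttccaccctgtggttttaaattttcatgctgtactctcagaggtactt

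The C/EBP type motif was found in Clec4e alone of the 8 members, starting 66 bases before the start, and 9.56% of the 32851 mouse promoters of this length held it. In Clec4e a PU.1 type match followed it 56 bases before the start and another lay 123 bases before it. GAGGAA was found in 7 of the 8 member genes, where a gene counts if any of its promoters matched. By promoter it was found in 8 of the 10 member promoters, against 23.3% of all promoters. The NF-kB type motif matched in 2 of 8 member genes and in 2 of the 10 member promoters, against 45.8% of all promoters. In Clec4a1 it matched on both strands at overlapping positions, starting 75 and 74 bases before the start. Neither the AP-1 type nor the interferon type motif matched in any of the 8, against 6.75% and 2.98% of all promoters. A match is a description of letters and shows no binding.

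Unstimulated WT macrophages held very different amounts of these RNAs. Per kilobase of exon, on the log2 scale, Clec4d was highest of the 10 at 11.26, followed by Clec7a at 10.55 and Mrc1 at 10.18. Clec4a1 (9.55), Clec4a3 (9.31), Clec5a (8.36) and Clec4a2 (8.14) lay between. Clec4n (7.86) and Clec4e (7.84) were closer to each other than the spread of Clec4n libraries, and Clec10a was lowest at 5.73. After 240 min of LPS the order had changed at the top: Clec4d stayed first at 11.95, and Clec4e moved from rank 9 to rank 2 at 11.22. Clec4a1 was next at 10.99, ahead of Clec7a at 10.18 and Mrc1 at 9.94. Clec5a (9.38), Clec4a3 (9.22), Clec4a2 (8.30), Clec4n (7.54) and Clec10a (5.14) followed. In D310N at 0 min Clec7a, at 11.15 per kilobase, was nearly level with Clec4d at 11.21.

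**Figure D1:**
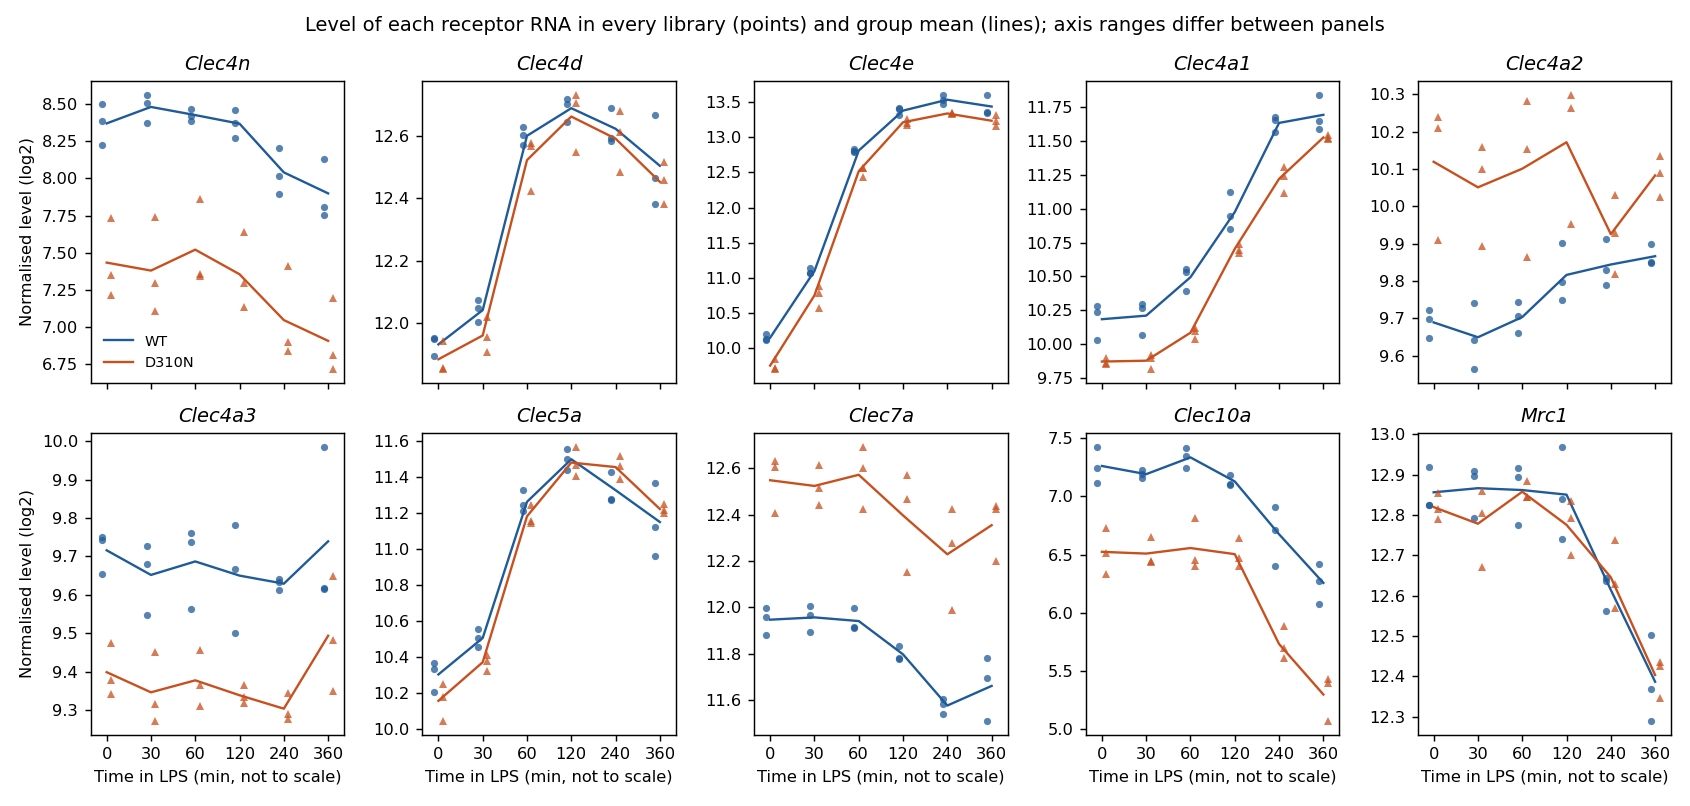
Level of each of the 10 receptor RNAs (log2 normalised value, not per length) in every library, by time in LPS (min), with WT as blue circles, D310N as orange triangles and lines through the group means of 3 libraries. The genotypes separate at all times for Clec4n, Clec7a and Clec10a, and Clec4e, Clec4d, Clec5a and Clec4a1 climb with time in both.

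The comparison of the genotypes asks how macrophages with the D310N form of ABIN-2 differ from WT in these RNAs before and during LPS. On average over the 6 times 7 of the 10 receptors differed by limma (adjusted p under 0.05, called below): Clec4n, Clec10a, Clec4a1, Clec4a3 and Clec4e were lower in D310N, and Clec7a and Clec4a2 were higher. Of all tested genes 48.1% were called on average, 25.4% lower and 22.7% higher, so a call by itself is common in this comparison and the sizes carry more. The median difference of the 10 members was -0.16, against -0.00143 for all tested genes. At single times fewer genes were called. The members called numbered 7 of 10 at 0 min, where 10.7% of all genes were called, 7 at 30 min (12.2%) and 7 at 60 min (12.9%). They numbered 6 at 120 min (17.7%), 6 at 240 min (17.0%) and 5 at 360 min (16.3%). The 360 min count is the least firm. It was 3 without the D310N library numbered 1 or 3 of that time, 3 with library weights, and 0 in a fit on the 6 libraries of that time alone. In that small fit 12 genes of the whole table were called, and 6 members had an unadjusted p under 0.05.

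Libraries of the 2 genotypes did not overlap at all for 7 members at 0 min, where the same was true of 32.7% of tested genes, and for 8 at 30 min (33.4%). At 60, 120, 240 and 360 min it held for 7, 7, 6 and 6 members, beside 37.4%, 31.7%, 37.6% and 22.2% of genes. Clec4n, Clec10a and Clec4a3 were called lower at each of the 6 times, as were 1.84% of tested genes (215). Clec7a was called higher at each time, as were 0.738% (86). The 6 comparisons between genotypes share no library with each other. Same-numbered D310N libraries tended to deviate together between 0 min and the LPS times, however, so the 6 may not be independent.

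**Figure D2:**
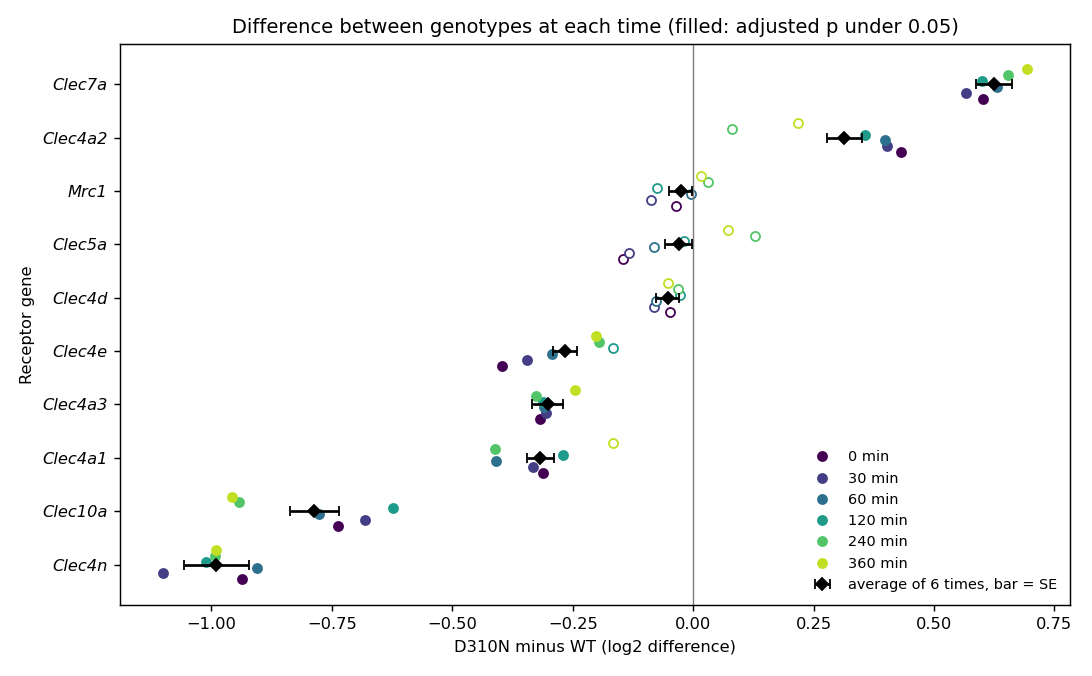
D310N minus WT (log2 difference) for each receptor at each of the 6 times (circles coloured by time, filled where the adjusted p is under 0.05) and on average over the times (black diamonds, bar = SE). Clec4n and Clec10a sit far to the left, Clec7a to the right, and Mrc1, Clec5a and Clec4d around 0.

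Among the receptors that signal through Syk and Card9, Clec4n (chromosome 6, 123229843 to 123247021, plus strand, GRCm38) showed the largest difference of the 10 and was lower in D310N. Unstimulated, WT libraries numbered 1 to 3 read 8.23, 8.50 and 8.39 for Clec4n, and D310N libraries 7.35, 7.74 and 7.21. At 30 min the WT values were 8.50, 8.56 and 8.38 and the D310N values 7.30, 7.74 and 7.11. At 60 min they were 8.42, 8.39 and 8.47 against 7.36, 7.86 and 7.34. Every D310N library lay below every WT library, and the D310N library numbered 2 was the highest of its 3 each time. The later times looked alike, with 8.37, 8.27 and 8.46 in WT and 7.13, 7.64 and 7.30 in D310N at 120 min. At 240 min Clec4n read 8.02, 7.90 and 8.21 in WT and 6.90, 7.41 and 6.84 in D310N. At 360 min the values were 8.13, 7.76 and 7.81 against 6.81, 7.20 and 6.72. Again no library of one genotype reached the other. The difference ranged from -0.90 ± 0.17 (SE, adjusted p = 0.000255) at 60 min to -1.10 ± 0.17 (adjusted p = 2.08e-05) at 30 min, and was -0.99 ± 0.07 on average (1.99-fold lower, adjusted p = 3.51e-13, 3 libraries per group).

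Clec7a (chromosome 6, 129461591 to 129472779, minus strand) went the other way, so that Dectin-1 RNA was higher in D310N while Dectin-2 RNA was lower. WT libraries at 0 min read 11.88, 12 and 11.96 and D310N libraries 12.61, 12.41 and 12.63. At 30 min they read 12.01, 11.97 and 11.90 against 12.61, 12.44 and 12.52, and at 60 min 11.91, 11.92 and 12 against 12.60, 12.42 and 12.69. The lowest D310N library exceeded the highest WT library at each of these times, and number 2 was the lowest of the D310N libraries. At 120 min the WT values were 11.78, 11.83 and 11.78 and the D310N values 12.47, 12.15 and 12.57. At 240 min Clec7a read 11.54, 11.61 and 11.58 in WT and 12.42, 11.99 and 12.28 in D310N, and at 360 min 11.51, 11.78 and 11.69 against 12.43, 12.20 and 12.44. The separation held at these times as well. The difference lay between 0.57 ± 0.09 (30 min, adjusted p = 6.32e-05) and 0.69 ± 0.09 (360 min, adjusted p = 8.76e-06), with an average of 0.62 ± 0.04 (1.54-fold higher, adjusted p = 2.35e-14). GENCODE M21 lists Clec7a as a polymorphic pseudogene in its gene type field, although its RNA was among the more abundant of the 10.

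Clec4e (chromosome 6, 123281789 to 123289870, minus strand), the receptor for mycobacterial cord factor, was lower in D310N, most clearly before and early in LPS. Its WT libraries at 0 min read 10.12, 10.20 and 10.13, and its D310N libraries 9.71, 9.84 and 9.71. At 30 min the values were 11.08, 11.15 and 11.07 against 10.58, 10.89 and 10.79. At 60 min they were 12.81, 12.83 and 12.80 against 12.43, 12.56 and 12.57. No libraries of the genotypes overlapped at these times. The gap was smaller in the later values, though the difference of the responses was not called, with 13.40, 13.42 and 13.32 in WT and 13.18, 13.21 and 13.26 in D310N at 120 min. At 240 min WT read 13.53, 13.47 and 13.60 and D310N 13.35, 13.34 and 13.33. At 360 min WT read 13.60, 13.37 and 13.34 and D310N 13.16, 13.32 and 13.23. D310N libraries still lay below WT libraries, though at 360 min the highest D310N and the lowest WT library nearly touched. The difference was -0.40 ± 0.06 at 0 min (adjusted p = 3.87e-05), -0.35 ± 0.06 at 30 min (adjusted p = 0.000193) and -0.29 ± 0.06 at 60 min (adjusted p = 0.00126). At 120 min it was -0.17 ± 0.06 and missed the threshold (adjusted p = 0.0637), which it passed without the WT library numbered 1 at 360 min (adjusted p = 0.0223) or the D310N library numbered 1 (adjusted p = 0.0346) or 2 (adjusted p = 0.0474) at 30 min, and with library weights (-0.18, adjusted p = 0.0373). It was -0.20 ± 0.06 both at 240 min (adjusted p = 0.0284) and at 360 min (adjusted p = 0.0252), and -0.27 ± 0.03 on average (1.2-fold lower, adjusted p = 4.03e-10).

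The late Clec4e calls depended on single libraries and on the setting. At 240 min the call was lost without WT library 1 or 3 or any of the D310N libraries of that time (adjusted p 0.0553 to 0.126) and under quantile normalisation (-0.13, adjusted p = 0.208). At 360 min it was lost without WT library 1 (-0.12, adjusted p = 0.178), D310N library 1 (-0.16, adjusted p = 0.135) or D310N library 3 (-0.20, adjusted p = 0.0742), under quantile normalisation (-0.16, adjusted p = 0.103), with library weights (-0.13, adjusted p = 0.128) and in a fit on that time alone (adjusted p = 0.347).

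Clec4d (chromosome 6, 123262111 to 123275265, plus strand), whose product MCL forms dimers with Mincle and Dectin-2, was the member with the highest level per length and had no call at any time. WT libraries read 11.90, 11.95 and 11.95 at 0 min and D310N libraries 11.94, 11.86 and 11.85. The genotypes overlapped here and at the other 5 times. Differences ran from -0.08 to -0.03 and the average was -0.05 ± 0.02 (adjusted p = 0.068). On average it passed under quantile normalisation (-0.06, adjusted p = 0.0356), and also without the WT library numbered 2 at 360 min (adjusted p = 0.0219), the D310N library numbered 3 at 120 min (adjusted p = 0.0464) or the D310N library numbered 1 at 240 min (adjusted p = 0.0394).

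Clec5a (chromosome 6, 40574894 to 40585821, minus strand) was not called between genotypes at any of the 6 times. Its WT libraries read 10.21, 10.37 and 10.34 at 0 min and its D310N libraries 10.18, 10.05 and 10.25. At 240 min the WT values were 11.27, 11.28 and 11.42 and the D310N values 11.52, 11.39 and 11.46. Libraries overlapped at both times, with differences of -0.15 ± 0.07 (adjusted p = 0.188) and 0.13 ± 0.07 (adjusted p = 0.201). The average difference was -0.03 ± 0.03 (adjusted p = 0.393). Single times passed under other settings: 30 min in a fit on its own libraries (-0.13, adjusted p = 0.0447), 240 min with library weights (0.14, adjusted p = 0.0325), and 360 min without the WT library numbered 1 of that time (0.18, adjusted p = 0.0392).

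The 3 DCIR family genes, in the same stretch of chromosome 6, did not share a direction. Clec4a1 (122921848 to 122934619, plus strand) was lower in D310N. At 0 min WT libraries read 10.28, 10.24 and 10.03 and D310N libraries 9.86, 9.90 and 9.86. At 240 min they read 11.57, 11.65 and 11.67 against 11.11, 11.24 and 11.30. At 360 min they read 11.64, 11.84 and 11.59 against 11.54, 11.51 and 11.52. Libraries of the genotypes did not overlap at any of the 6 times, but at 360 min the groups nearly touched. The difference was -0.31 ± 0.07 at 0 min (adjusted p = 0.00253), -0.41 ± 0.07 at both 60 min (adjusted p = 9.58e-05) and 240 min (adjusted p = 0.000114), and -0.17 ± 0.07 at 360 min (adjusted p = 0.0985). At 120 min the call (-0.27 ± 0.07, adjusted p = 0.00596) was lost without WT library 2 (-0.20, adjusted p = 0.0739), and at 360 min the difference passed without WT library 3 (-0.22, adjusted p = 0.0427). The average was -0.32 ± 0.03 (1.25-fold lower, adjusted p = 1.09e-10).

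Clec4a3 (122952515 to 122969875, plus strand) was lower in D310N by a similar amount. WT libraries read 9.75, 9.74 and 9.65 at 0 min and D310N libraries 9.34, 9.48 and 9.38. At 240 min the values were 9.63, 9.64 and 9.61 against 9.28, 9.34 and 9.29. At 360 min they were 9.62, 9.99 and 9.62 against 9.35, 9.65 and 9.48, where WT library 2 stood well above its group. The genotypes were apart at 5 of the 6 times and overlapped at 360 min. Differences were -0.31 to -0.33 from 0 to 240 min (adjusted p 0.00524 to 0.00976) and -0.25 ± 0.08 at 360 min (adjusted p = 0.0351), with an average of -0.30 ± 0.03 (1.23-fold lower, adjusted p = 5.71e-09). Of the single times the call at 240 min survived the loss of any library. It was lost at 0 min without D310N library 1, at 30 min without WT library 2 or D310N library 3, at 60 min without WT or D310N library 1, and at 120 min without WT library 2 (adjusted p 0.0547 to 0.0674). At 360 min it was lost without WT library 2 (-0.12, adjusted p = 0.259), D310N library 1 (-0.17, adjusted p = 0.208) or D310N library 3 (-0.24, adjusted p = 0.0937), with library weights (-0.21, adjusted p = 0.0594) and in a fit on that time alone (adjusted p = 0.411).

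Clec4a2 (123106428 to 123143999, plus strand), the DCIR1 gene with the inhibitory motif, was called higher in D310N up to 120 min. At 0 min WT libraries read 9.65, 9.72 and 9.70 and D310N libraries 10.24, 9.91 and 10.21. At 120 min they read 9.80, 9.90 and 9.75 against 10.26, 9.95 and 10.30. At 240 min they read 9.83, 9.79 and 9.91 against 9.93, 9.82 and 10.03. The genotypes overlapped only at 240 min of the 6 times, and D310N library 2 was the lowest D310N library each time. The difference was 0.43 ± 0.09 at 0 min (adjusted p = 0.00133), 0.40 ± 0.09 at 30 min (adjusted p = 0.00234) and at 60 min (adjusted p = 0.00244), and 0.36 ± 0.09 at 120 min (adjusted p = 0.00544). It was 0.08 ± 0.09 at 240 min (adjusted p = 0.588) and 0.22 ± 0.09 at 360 min (adjusted p = 0.0989), where it passed without the D310N libraries numbered 2 (0.24, adjusted p = 0.00355). The average was 0.31 ± 0.04 (1.24-fold higher, adjusted p = 2.6e-08). Of its transcript stretches of 75 bases, the read length, 3.24% also occur in Clec4a4 or Clec4b1, so some of its reads cannot be assigned with certainty.

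Of the uptake receptors, Clec10a (chromosome 11, 70156197 to 70170834, plus strand) was lower in D310N at every time and Mrc1 was not. Clec10a libraries read 7.42, 7.24 and 7.11 in WT and 6.51, 6.73 and 6.33 in D310N at 0 min. At 30 min they read 7.22, 7.19 and 7.15 against 6.44, 6.65 and 6.43, and at 60 min 7.34, 7.41 and 7.25 against 6.40, 6.81 and 6.45. All D310N libraries lay below all WT libraries of their time. At 120 min WT read 7.09, 7.18 and 7.11 and D310N 6.47, 6.64 and 6.40. At 240 min WT read 6.71, 6.91 and 6.40 and D310N 5.70, 5.89 and 5.62. At 360 min WT read 6.42, 6.08 and 6.27 and D310N 5.39, 5.43 and 5.07. The groups stayed apart. The difference ran from -0.62 ± 0.13 at 120 min (adjusted p = 0.000602) to -0.96 ± 0.13 at 360 min (adjusted p = 5.76e-06), and averaged -0.79 ± 0.05 (1.72-fold lower, adjusted p = 1.09e-13). Clec10a shares 4.44% of its stretches of 75 bases with its neighbour Mgl2, which makes part of its level uncertain. The 8 members other than Clec10a and Clec4a2 share no such stretch with another gene.

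Mrc1 (chromosome 2, 14229392 to 14332057, plus strand) read 12.82, 12.92 and 12.82 in WT and 12.81, 12.85 and 12.79 in D310N at 0 min. At 360 min it read 12.50, 12.37 and 12.29 in WT and 12.44, 12.43 and 12.35 in D310N. The genotypes overlapped at each of the 6 times. Single differences lay between -0.09 and 0.03, and the average was -0.03 ± 0.02 (adjusted p = 0.383).

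In D310N the library numbered 2 lay nearest to WT for the 4 members with a pronounced spread. It was the highest of the 3 D310N libraries at 6 of 6 times for Clec4n and Clec10a, and the lowest at 6 of 6 times for Clec4a2 and Clec7a. At 0 min its distance from the WT mean was -0.63 for Clec4n, where the other 2 libraries lay at -1.02 and -1.16. Without these 6 libraries the average differences were -1.15 for Clec4n, -0.87 for Clec10a, 0.71 for Clec7a and 0.40 for Clec4a2. They are larger in size by construction, since the libraries left out were picked from these values as those nearest to WT. Not every member went this way. For Clec5a the library numbered 2 was the lowest D310N library at 5 of 6 times. At 0 min it lay furthest from the WT mean of Clec5a (-0.26, against -0.13 and -0.05 for numbers 1 and 3). For Clec4d it was the lowest at 4 of 6 times. What sets the libraries numbered 2 apart was not tested. With 1 mean per replicate number and genotype, 3 against 3, the same 7 members were called on average, with adjusted p-values from 0.00013 (Clec7a and Clec10a) to 0.00413 (Clec4a2).

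**Figure D3:**
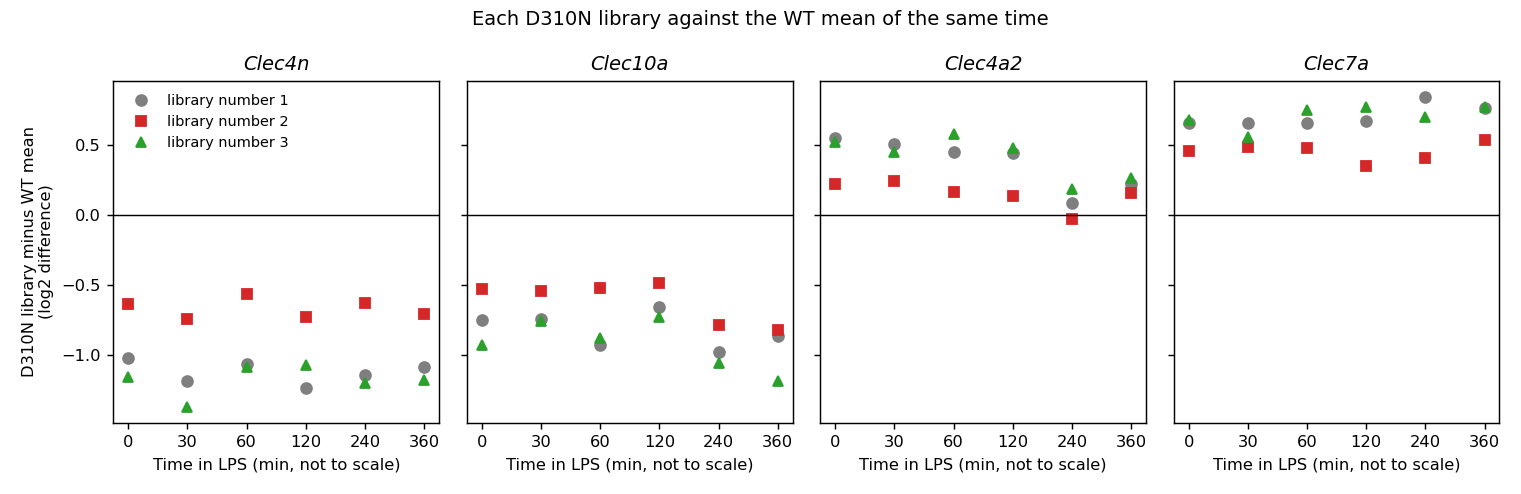
Each D310N library minus the WT mean of the same time (log2 difference) for Clec4n, Clec10a, Clec4a2 and Clec7a, by time in LPS (min), with a symbol for each library number. Library number 2 (red squares) is nearest to the line at 0, the WT mean, at all 6 times in each panel.

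The comparison with 0 min asks how LPS, which acts through TLR4, changes the receptors within each genotype. The 5 LPS times of a genotype share its 3 libraries at 0 min. In the values as deposited Clec4e, Clec4d, Clec5a and Clec4a1 rose in both genotypes. In the same values Clec10a, Mrc1, Clec7a and Clec4n fell late, and neither Clec4a2 nor Clec4a3 was called. At 30 min 1 of 10 members was called, Clec4e, which was higher in both genotypes. At that time 6.09% of all genes were called in WT (4.79% higher) and 6.64% in D310N (5.16% higher). At 60 min 4 of 10 were called, all higher, beside 37.2% of genes in WT (20.1% higher) and 38.5% in D310N (21.3% higher). At 120 min the same 4 were called, beside 66.6% of genes in WT (32.4% higher) and 64.0% in D310N (31.9% higher). Fewer of the members than of all genes were thus called at 120 min. At 240 min 4 members were higher and 3 lower in WT, where 80.0% of genes were called (39.6% higher, 40.4% lower). In D310N 4 were higher and 4 lower, where 79.1% were called (39.0% higher, 40.2% lower). At 360 min 4 were higher and 4 lower in WT, beside 80.4% of genes (39.3% higher, 41.0% lower). In D310N 4 were higher and 3 lower, beside 80.0% of genes (39.0% higher, 41.0% lower). The late shares lie near the background.

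Quantile normalisation, which forces the libraries to 1 distribution, moved these splits towards falls. Under it 4 members were higher and 3 lower in WT at 120 min, 3 higher and 4 lower in WT at 240 min, and 3 higher and 5 lower at 240 and 360 min in D310N and at 360 min in WT. At 60 min the split became 4 higher and 2 lower in WT, and 3 higher and 2 lower in D310N. At 120 min in D310N it became 4 higher and 2 lower. Clec7a and Mrc1 were among the members called lower at 60 and 120 min in both genotypes, so under this scaling their falls were not late. The shift of the median over all genes was under 0.1 under each scaling, but that median does not describe single members. Clec4d, for example, changed at 240 min in WT by 0.69 as deposited and by -0.04 under quantile normalisation. The direction of the 7 average genotype calls was the same under each scaling.

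**Figure D4:**
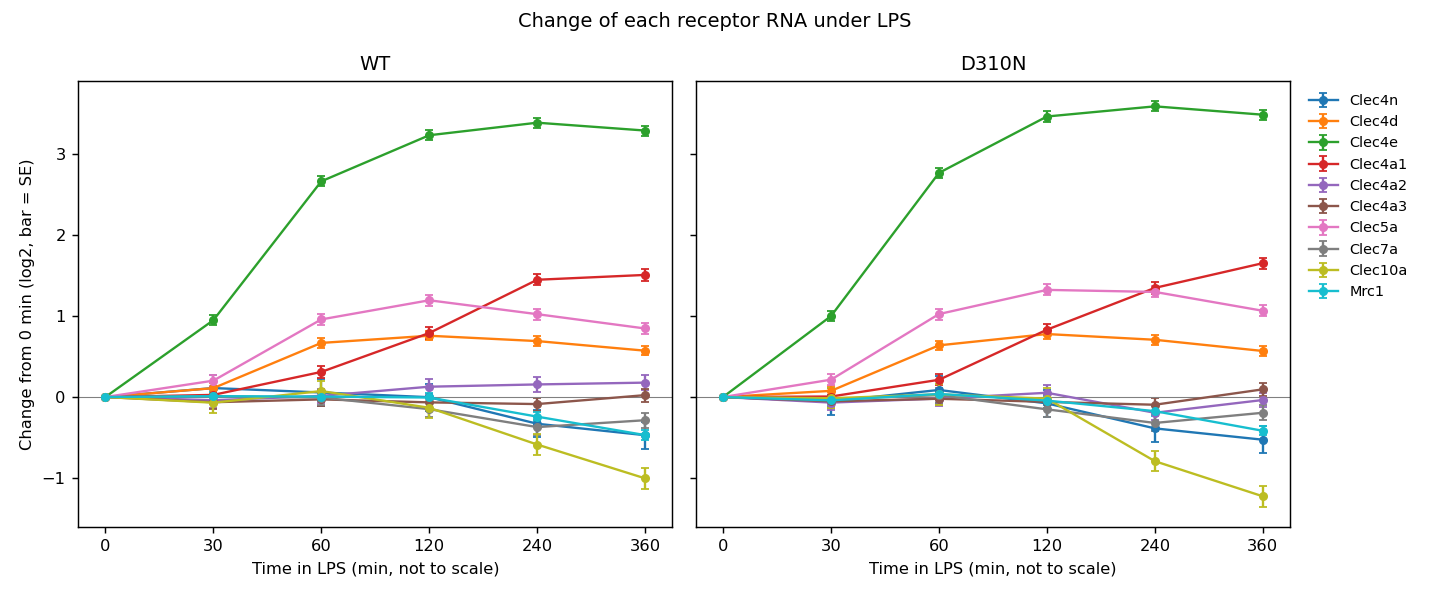
Change of each receptor RNA from 0 min (log2 difference, bar = SE) by time in LPS (min) in WT and in D310N, with the values as deposited. Clec4e rises above 3 from 120 min on, Clec4a1, Clec5a and Clec4d rise less, and Clec10a falls by about 1 at 360 min.

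Clec4e responded first and most. In WT its mean rose from 10.15 ± 0.04 (SD, n = 3) at 0 min to 11.10 ± 0.04 at 30 min, 12.81 ± 0.02 at 60 min and 13.53 ± 0.07 at 240 min. The change was 0.95 ± 0.06 (SE) at 30 min (adjusted p = 1.87e-13) and 3.38 ± 0.06 at 240 min (10.4-fold, adjusted p = 1.44e-29). In D310N it was 1.00 ± 0.06 at 30 min (adjusted p = 4.91e-14) and 3.58 ± 0.06 at 240 min (12-fold, adjusted p = 3.44e-30). At 360 min it was 3.28 ± 0.06 in WT and 3.48 ± 0.06 in D310N. Every library in LPS exceeded every library at 0 min of its genotype.

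Clec5a rose to a maximum at 120 min, from 10.30 ± 0.09 to 11.50 ± 0.06 (SD) in WT and from 10.16 ± 0.10 to 11.48 ± 0.08 in D310N. The change at 120 min was 1.19 ± 0.07 (2.29-fold, adjusted p = 3.52e-16) in WT and 1.32 ± 0.07 (2.5-fold, adjusted p = 2.65e-17) in D310N. By 360 min it was 0.84 ± 0.07 in WT and 1.06 ± 0.07 in D310N. Under quantile normalisation the WT rise was 0.55 at 240 min in place of 1.02, and 0.40 at 360 min. At 30 min Clec5a changed by 0.20 in WT (adjusted p = 0.0781) and by 0.21 in D310N (adjusted p = 0.0531), and both passed with library weights and in fits on the groups compared alone. They also passed in 2 (WT) and 5 (D310N) of the 36 fits that leave out 1 library.

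Clec4a1 rose later than the others and was still at its highest at 360 min. Its change in WT was 0.31 ± 0.07 at 60 min (adjusted p = 0.000524), 0.79 ± 0.07 at 120 min, 1.45 ± 0.07 at 240 min and 1.51 ± 0.07 at 360 min (2.84-fold, adjusted p = 6.64e-19). In D310N it was 0.21 ± 0.07 at 60 min (adjusted p = 0.015) and 1.65 ± 0.07 at 360 min (3.14-fold, adjusted p = 5.94e-20). The D310N call at 60 min was lost under quantile normalisation (0.10, adjusted p = 0.281), without the D310N library numbered 3 of that time (0.19, adjusted p = 0.0579) and without the D310N libraries numbered 2 (0.22, adjusted p = 0.0844).

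Clec4d rose by 0.76 ± 0.06 in WT (1.69-fold, adjusted p = 7.2e-13) and by 0.78 ± 0.06 in D310N (1.71-fold, adjusted p = 4e-13) at 120 min. At that time WT libraries read 12.64, 12.72 and 12.70 and D310N libraries 12.70, 12.55 and 12.73, all above every library at 0 min. The rise of Clec4d at 60 and 120 min was smaller under quantile normalisation, at 0.42 and 0.32 in WT and at 0.36 and 0.37 in D310N. As deposited the later change was 0.69 ± 0.06 at 240 min and 0.57 ± 0.06 at 360 min in WT, and 0.71 ± 0.06 and 0.57 ± 0.06 in D310N, but under quantile normalisation it turned in WT to -0.04 (adjusted p = 0.57) and -0.16 (adjusted p = 0.016), and in D310N to 0.02 (adjusted p = 0.804) and -0.14 (adjusted p = 0.0321).

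Of the receptors that fell, Clec10a had the largest change in the values as deposited, but under quantile normalisation Mrc1 and Clec7a fell more. WT means were 7.26 ± 0.16 (SD) at 0 min, 7.13 ± 0.05 at 120 min and 6.26 ± 0.17 at 360 min. The fall was -0.59 ± 0.13 at 240 min (adjusted p = 0.000101) and -1.0 ± 0.13 at 360 min (2-fold, adjusted p = 1.56e-08) in WT. In D310N it was -0.79 ± 0.13 (adjusted p = 1.3e-06) and -1.22 ± 0.13 (2.34-fold, adjusted p = 2.49e-10). Under quantile normalisation it was -0.28 and -0.66 in WT and -0.45 and -0.84 in D310N.

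Mrc1 fell by -0.24 ± 0.06 at 240 min (adjusted p = 0.000358) and -0.47 ± 0.06 at 360 min (adjusted p = 1.07e-08) in WT. In D310N the values were -0.17 ± 0.06 (adjusted p = 0.00734) and -0.42 ± 0.06 (adjusted p = 1.11e-07). The D310N call for Mrc1 at 240 min was lost without the D310N library numbered 2 of that time (-0.14, adjusted p = 0.0533). Quantile normalisation gave far larger falls of Mrc1, of -1.02 and -1.23 in WT and -0.90 and -1.15 in D310N.

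Clec7a fell in WT by -0.37 ± 0.09 at 240 min (adjusted p = 0.000628) and -0.29 ± 0.09 at 360 min (adjusted p = 0.00631), the latter lost without the WT library numbered 1 at 360 min (-0.21, adjusted p = 0.0513). In D310N the change was -0.32 ± 0.09 at 240 min (adjusted p = 0.00265), lost without the D310N library numbered 2 of that time (-0.20, adjusted p = 0.0548), and -0.19 ± 0.09 at 360 min (adjusted p = 0.0571), which passed in 8 of the 36 fits that leave out 1 library. At 120 min Clec7a changed in D310N by -0.15 ± 0.09 (adjusted p = 0.157), and with the replicate number as a block, where same-numbered libraries deviated together, the adjusted p was 0.0157. Under quantile normalisation the 4 values at 240 and 360 min were -1.03, -0.95, -0.97 and -0.89.

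Clec4n changed by -0.33 ± 0.17 at 240 min (adjusted p = 0.07) and -0.47 ± 0.17 at 360 min (adjusted p = 0.0112) in WT, and by -0.39 ± 0.17 (adjusted p = 0.0352) and -0.53 ± 0.17 (adjusted p = 0.00504) in D310N. These changes are less than the difference between genotypes at any time. Without WT library 3 of 240 min the WT change at that time passed (-0.41, adjusted p = 0.0459). It also passed in a fit on the groups compared alone (adjusted p = 0.00176), with library weights (-0.35, adjusted p = 0.0245) and without the D310N libraries numbered 2 (adjusted p = 0.00248). The WT call at 360 min was lost without WT library 2 of 0 min (adjusted p = 0.0501) or of 360 min (adjusted p = 0.0507) and under quantile normalisation (-0.35, adjusted p = 0.0511). In D310N the 240 min call was lost without library 2 of 0 min (-0.23, adjusted p = 0.233) or library 1 (-0.31, adjusted p = 0.131) or 3 (-0.28, adjusted p = 0.166) of 240 min, and the 360 min call without library 2 of 0 min (-0.37, adjusted p = 0.0575). Quantile normalisation ended both D310N calls (-0.15 and -0.25, adjusted p = 0.396 and 0.156).

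Clec4a2 and Clec4a3 moved little in the values as deposited. There Clec4a3 changed by between -0.10 and 0.09 over all LPS times and both genotypes. Under quantile normalisation, however, Clec4a3 was called lower in WT at 120, 240 and 360 min and in D310N at 240 min. Clec4a2 changed in WT by 0.16 ± 0.09 at 240 min (adjusted p = 0.115) and 0.18 ± 0.09 at 360 min (adjusted p = 0.0717), and in D310N by -0.19 ± 0.09 (adjusted p = 0.0505) and -0.04 ± 0.09 (adjusted p = 0.715). The D310N change at 240 min passed in 9 of the 36 fits that leave out 1 library, and the WT change at 360 min in 2. In fits on the groups compared alone the WT changes passed at 240 min (adjusted p = 0.0052) and at 360 min (adjusted p = 0.0204). Without the D310N libraries numbered 2 they passed as well (adjusted p = 0.00619 and 0.00215). With library weights the D310N change at 240 min passed (-0.21, adjusted p = 0.00413). The 2 WT changes of Clec4a2 turned to -0.06 and -0.05 under quantile normalisation, and the D310N changes became -0.46 (adjusted p = 5.08e-05) and -0.35 (adjusted p = 0.00136).

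Whether the LPS response itself differed between the genotypes was tested by the difference of the responses at each time and jointly. By limma 0 of the 10 members passed the joint test, which 4.84% of all genes passed, and 1 (Clec5a) had an unadjusted p under 0.05. The joint adjusted p of the members ranged from 0.274 for Clec5a to 0.999 for Clec4a3. At 30, 60, 120, 240 and 360 min 0 members were called, beside 0.00%, 0.0686%, 0.935%, 1.95% and 2.01% of genes. The numbers with an unadjusted p under 0.05 were 0, 0, 1, 3 and 2. They were Clec4e at 120, 240 and 360 min, Clec5a at 240 and 360 min and Clec4a2 at 240 min, named after their values were seen.

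The response of Clec4e was 0.23 ± 0.09 larger in D310N at 120 min (adjusted p = 0.34), 0.20 ± 0.09 at 240 min (adjusted p = 0.279) and 0.20 ± 0.09 at 360 min (adjusted p = 0.301). Clec5a gave 0.27 ± 0.10 at 240 min (adjusted p = 0.152), and Clec4a2 -0.35 ± 0.13 (adjusted p = 0.178). Some settings moved these past the threshold. The Clec4a2 difference at 240 min passed with library weights (adjusted p = 0.0196) and without the D310N libraries numbered 2 (-0.40, adjusted p = 0.00636). The Clec5a difference passed with library weights (0.25, adjusted p = 0.0137) and without the WT library numbered 1 at 360 min (adjusted p = 0.0321). Without that library Clec5a also passed the joint test (adjusted p = 0.012). With library weights Clec4e (adjusted p = 0.0153) and Clec5a (adjusted p = 0.0138) passed the joint test. Clec4a2 passed it without the D310N libraries numbered 2 (adjusted p = 0.00527) and with the replicate number as a block (adjusted p = 0.00963).

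Of the 10 members, 6 lie together on chromosome 6 between 122921848 and 123289870 (GRCm38), a stretch of 368.0 kb with 9 protein-coding genes, all of the Clec4 family. Their average differences between genotypes did not share a sign along it: Clec4a1 and Clec4a3 were lower in D310N at one end (-0.32 and -0.30), Clec4a2 was higher in the middle (0.31), and Clec4n (-0.99), Clec4d (-0.05) and Clec4e (-0.27) followed. Clec4b1, which is no member and lies between Clec4a3 and Clec4a2, was higher as well (0.39 ± 0.06, adjusted p = 1.83e-06). Clec4a4 and Clec4b2 were below the filter. Beyond the stretch, Necap1 (-0.05 ± 0.02, adjusted p = 0.0461) and C3ar1 (0.07 ± 0.02, adjusted p = 0.00259) differed little, while Slc2a3 (-0.31 ± 0.07, adjusted p = 0.000623) and Dppa3 (-0.24 ± 0.07, adjusted p = 0.00754) were lower. LPS responses also differed between neighbours, since Clec4e and Clec4d lie next to each other and rose by 3.38 and 0.69 at 240 min in WT. Clec5a and Clec7a are on the same chromosome but outside this stretch.

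**Figure D5:**
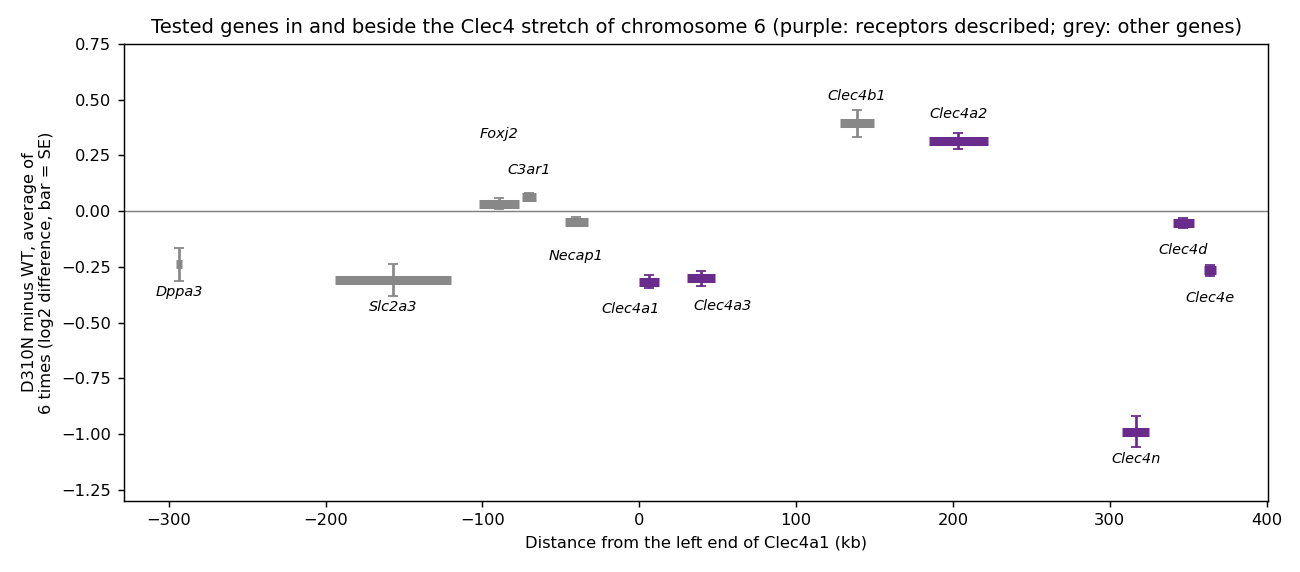
D310N minus WT on average over 6 times (log2 difference, bar = SE) for the tested genes in and beside the Clec4 stretch, against distance from the left end of Clec4a1 (kb), with each horizontal bar spanning the gene and members in purple. Clec4b1 (0.39) and Clec4a2 lie above 0, and the members on either side of them below it, down to -0.99 for Clec4n.

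The adaptors, kinases and phosphatases through which these receptors signal were given by a list of 30 genes, all of which were tested. Between genotypes on average 7 were higher, 6 lower and 17 not called, with a median difference of 0.0053 against -0.00143 for all genes. Of all tested genes 48.1% were called in this comparison (22.7% higher, 25.4% lower). The gene with a difference of at least 0.25 was Cbl, a ubiquitin ligase that tags activated receptors (0.31 ± 0.05, adjusted p = 2.55e-06). Syk itself differed by 0.06 ± 0.02 (adjusted p = 0.00182), Fcer1g by -0.03 ± 0.03 (adjusted p = 0.447), Card9 by 0.00 ± 0.03 (adjusted p = 0.931) and Tyrobp by -0.01 ± 0.02 (adjusted p = 0.802). The shared adaptors thus differed far less than Clec4n or Clec7a.

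LPS changed most of the list, as it did most genes: in WT at 240 min 15 rose, 11 fell and 4 were not called. Of all tested genes 80.0% were called there (39.6% higher, 40.4% lower). The median of the list was 0.081 against -0.0182 for all genes. The largest rises were of Src (3.19 ± 0.08, adjusted p = 2.15e-25), a kinase that phosphorylates activating motifs, Malt1 (2.87 ± 0.08, adjusted p = 3.31e-25), a partner of Card9 and Bcl10, and Tab2 (1.64 ± 0.07, adjusted p = 4.52e-20). The largest falls were of Inpp5d, which encodes the lipid phosphatase SHIP1 (-1.92 ± 0.06, adjusted p = 6.13e-23), Nfatc2 (-1.71 ± 0.09, adjusted p = 3.29e-17) and Vav2 (-1.37 ± 0.09, adjusted p = 2.59e-15). Tab2 rose by 0.89 under quantile normalisation. Syk rose by 1.06 ± 0.04 and Fcer1g by 0.91 ± 0.07, Card9 fell by -0.90 ± 0.06, and Tyrobp changed by 0.01 ± 0.05 (adjusted p = 0.833). Of the 30 genes 29 were not called by the joint test of different time courses, which 4.84% of all genes passed. The other was Nfatc1 (adjusted p = 0.0328).

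Other C-type lectin genes were taken from a list of 40, of which 31 are in the table and 19 were tested. On average over the times 9 were higher in D310N, 5 lower and 5 not called, with a median of 0.0239 against -0.00143 for all genes. Of all tested genes 48.1% were called (22.7% higher, 25.4% lower). With 1 mean per replicate number and genotype 8 of the 19 were called in place of 14. The largest differences were those of the oxidised lipoprotein receptor gene Olr1 (0.67 ± 0.07, adjusted p = 7.87e-10), the phospholipase A2 receptor gene Pla2r1, a relative of Mrc1 (0.63 ± 0.06, adjusted p = 2.71e-10), and Clec2i (-0.53 ± 0.05, adjusted p = 3.77e-10). In WT at 240 min of LPS 11 were higher, 7 lower and 1 not called, beside 80.0% of all genes called (39.6% higher, 40.4% lower). The median was 0.312 against -0.0182 for all genes. The activation marker gene Cd69 (5.94 ± 0.10) and Klrk1 (4.52 ± 0.15), which encodes the receptor NKG2D, rose more than Clec4e, and Thbd (-2.00 ± 0.13), which encodes thrombomodulin, fell more than Clec10a. Clec12a, an inhibitory receptor gene, changed by 0.17 ± 0.03 as deposited and by -0.69 under quantile normalisation. The joint test, which 4.84% of all genes passed, called Olr1 (adjusted p = 0.0316) and Cd69 (adjusted p = 0.0202), whereas it called no member.

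For 3 members the tested genes with the most similar course were taken from the correlation of their 12 group means, as a description of points that share libraries. Clec4e was followed most closely by Ccl2, a monocyte-attracting chemokine gene (r = 0.9948), Nfkbib, an inhibitor of NF-kB (r = 0.9946), and Slfn2 (r = 0.9945). These rose in WT at 240 min by 2.98, 2.38 and 2.02. Clec4n was followed by Rapsn (r = 0.9899), Itgb7 (r = 0.9817) and Aldoc (r = 0.9795), each lower in D310N on average, by -0.85 ± 0.10, -0.38 ± 0.06 and -0.45 ± 0.05. Mrc1 was followed by Pccb (r = 0.9891), Prim2 (r = 0.9888) and Haus1 (r = 0.9888), which fell by -0.99, -1.10 and -0.86 in WT at 360 min.

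Markers of macrophages and of other cell states moved with the genotype beside the receptors. All 9 macrophage markers were called on average, 3 higher and 6 lower in D310N, with a median of -0.0919 against -0.00143 for all genes. In this comparison 48.1% of all tested genes were called. At 0 min 1 macrophage marker was called higher and 1 lower, beside 10.7% of genes, and at 360 min 0 were called, beside 16.3%. The average differences of the 9 were small. They ranged from -0.18 ± 0.03 for Mertk to 0.21 ± 0.02 for Itgam. Of 3 monocyte markers 2 were tested, and both were called higher in D310N on average. The summed linear level over the list, with all times pooled, was 591 to 1580 in WT libraries and 786 to 2240 in D310N libraries. At each single time the lowest D310N sum exceeded the highest WT sum, with 1170 to 1580 in WT and 1990 to 2240 in D310N at 0 min. Ccr2, a chemokine receptor gene of monocytes, was higher in D310N by 0.57 ± 0.05 on average (adjusted p = 5.28e-11), which is near the difference of Clec7a. Ly6c2 was below the filter. Of 8 dendritic cell markers 4 were tested, with sums of 32.6 to 256 in WT and 30.7 to 211 in D310N, and Flt3, Siglech, Cd209a and Dpp4 below the filter. Of 8 neutrophil markers 2 were tested, with sums of 20.2 to 32.6 in WT and 23.1 to 41 in D310N, and both were called higher in D310N on average. Their sums overlapped at 120 min (25.3 to 32.6 in WT, 31.7 to 41 in D310N) and lay higher in every D310N library at the other times. Of 5 mast cell and basophil markers 2 are in the table, with sums of 17.8 to 49.1 in WT and 12.8 to 32.2 in D310N, and 1 was tested, Kit (-0.78 ± 0.08, adjusted p = 5.55e-09). Of 4 fibroblast markers 0 passed the filter, with sums of 6.27 to 29.3 in WT and 7.82 to 18.8 in D310N. Of 8 genes of alternative activation 6 were tested, with sums over the list of 889 to 45000 in WT and 929 to 34600 in D310N: Fn1 was higher (1.40 ± 0.07, adjusted p = 7.44e-17), Chil3 (-0.55 ± 0.08, adjusted p = 7.18e-07), Ccl17 (-0.45 ± 0.05, adjusted p = 1.89e-08) and Ccl22 (-0.15 ± 0.03, adjusted p = 0.000475) were lower, and 2 were not called. Clec10a and Mrc1, which are used for the same state, gave -0.79 and -0.03. The part of cell composition in these differences was not tested.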

How the data were processed

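Total RNA of 36 macrophage libraries was sequenced. Per the submitters' processing notes, reads were handled with STAR 2.5.2a, RSEM 1.2.31 and DESeq2 1.10.1 on mm10. The authors deposited 1 table of normalised expression on a log2 scale, and the transformation is not given in the sources used here. Its values run from -4.14 to 19.3. Of its 16439 rows, 23 with gene names turned into dates were left out.

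A gene was tested where at least 3 libraries held a linear value of at least 10 (log2 of 3.32). The deposited log2 values were fitted with limma 3.58.1 in R 4.3.3, with 1 mean for each of 12 groups, an intensity trend and 24 residual degrees of freedom. Tests were two-sided, with Benjamini-Hochberg adjustment over all tested genes in each comparison, and a call is an adjusted p under 0.05. The joint test is limma's F test. ± after a difference is its SE. Positions and exon lengths come from GENCODE M21 on GRCm38. Per-kilobase values subtract log2 of exon length in kilobases. The fit was tested on simulated data.

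The members, lists and motifs were chosen with earlier results of these data known. Genes were named by rule: all members, list genes with an average genotype difference of at least 0.25 for signalling, for the same list the 3 that rose and the 3 that fell most at 240 min in WT, tested genes of the other lectin list, marker genes, neighbours of the Clec4 stretch, and the 3 genes most correlated with Clec4e, Clec4n and Mrc1. The shared adaptors Syk, Fcer1g, Card9 and Tyrobp, and genes that passed the joint test, are named beside them. The values of 1 listed gene are not reported here. Alternatives were other scalings, filters and pseudocounts, fits on the groups compared alone, library weights, the replicate number as a block, 1 mean per replicate number, and each library left out in turn. Leaving out the 6 D310N libraries numbered 2 together was chosen after seeing the data. Same-numbered libraries deviated together in every pair (correlation over 0.1) only for 120 min against 0 min in D310N. The correlations there were 0.325, 0.373 and 0.131. At the other LPS times in D310N all 3 pairs were positive too, but not all were over 0.1. The main fit paired no libraries in any comparison, and the replicate block was tried as an alternative in every comparison.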

Additional observations from a re-analysis of the deposited data

How the results depend on the processing

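Of the results over many genes, these counts of receptors called moved by more than 1.5 times. For D310N against WT at 360 min the count was 5, and it was 0 with only the libraries of the groups compared, 3 with library weights, and 3 to 6 with 1 library left out. For LPS at 30 min it was 1 in each genotype, and it became 2 in WT and 2 in D310N with only the groups compared, with library weights and with the replicate block, and 1 to 2 in either genotype with 1 library left out. For LPS at 120 min in WT it was 4, and 7 under quantile normalisation. In the joint test it was 0, and 2 with library weights, 1 with the replicate block, 1 without the D310N libraries numbered 2 and 0 to 1 with 1 library left out. Other C-type lectin genes called on average numbered 14, and 8 with 1 mean per replicate number. The cause of these moves was not tested.

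Small differences changed sign. With trimmed mean scaling Mrc1 at 60 min was 0.0079, and with library weights Clec4d at 360 min was 0.014. Under quantile normalisation the LPS changes in WT at 240 min were -0.038 for Clec4d, -0.062 for Clec4a2 and -0.69 for Clec12a, those at 360 min -0.16 for Clec4d and -0.0501 for Clec4a2, and Clec4d at 360 min in D310N was -0.14. Without the D310N libraries numbered 2, Clec4d was 0.0296 at 120 min and 0.022 at 240 min, Clec5a 0.0195 at 120 min, and on average Clec2d was 0.012 and Klrk1 0.029. With 1 library left out, the genotype difference of Mrc1 ranged from -0.048 to 0.022 at 60 min, -0.015 to 0.069 at 240 min and -0.032 to 0.074 at 360 min. That of Clec4d ranged from -0.062 to 0.0296 at 120 min, -0.075 to 0.022 at 240 min and -0.11 to 0.029 at 360 min. That of Clec5a ranged from -0.062 to 0.0195 at 120 min and -0.021 to 0.18 at 360 min. Clec1a on average ranged from -0.0038 to 0.054, and the LPS change of Clec4a2 at 360 min in D310N from -0.14 to 0.024. The cause was not tested.

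The 7 average genotype calls held under every setting tried. Outside 120 min in D310N, not all 3 same-numbered pairs correlated over 0.1. In D310N all 3 pairs were still positive at every LPS time. They were 0.271, 0.419 and 0.0674 at 30 min and 0.166, 0.288 and 0.0998 at 240 min. All 6 libraries correlated best with their own number at 240 and 360 min in D310N. The main fit took the libraries as independent and did not use this link. For the genotype comparisons the replicate block gave same-numbered WT and D310N libraries a shared term. That form did not model the separate link within D310N. For the LPS changes, the differences of responses and the joint test the block was fitted within each genotype. With these forms the replicate block ended no receptor's call and left the 7 calls at 0 min at 7. It added Clec4d on average (adjusted p = 0.0406), Clec5a at 30 min (0.0496 in WT, 0.032 in D310N), Clec4a2 at 120, 240 and 360 min in WT (0.0324, 0.00808, 0.00291) and at 240 min in D310N (0.00138), Clec7a at 120 min in WT (0.0165) and 360 min in D310N (0.00193), Clec4n at 240 min in WT (0.00118), and the difference of responses of Clec4a2 at 240 min (0.00756). With 3 libraries per group, no depth per library and no raw counts, small differences such as those of Clec4d, Clec5a and Mrc1 were not resolved.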
